A study of Homo sapiens with 4 samples.

Results

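The comparison described here set the control array of one human neuroendocrine tumour cell line against the control array of another, gene by gene. It used 2 of the 4 arrays of the series, the array titled NCI-H727 and the array titled QGP1, both from cells transfected with negative control siRNA. The 2 other arrays came from the same lines after siRNA against DAXX (DAXX-KD) and served as a second view of the line difference. QGP1 is described by the series as a pancreatic line and NCI-H727 as a bronchial line. All 4 cell preparations were electroporated with siRNA at a final 50 nM, so the controls carry that treatment too. The labels list 2 siRNAs against DAXX without saying if cells received one or both, and each group is 1 array. Of 19775 genes with a named probe set, 14648 passed a filter on mean signal and entered the comparison. Values are log2 signals after RMA, differences are NCI-H727-labelled minus QGP1-labelled, and paired values give the array labelled QGP1 first.

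Neuroendocrine tumours arise from hormone-secreting cells scattered through the airway, gut and pancreas. Their cells store peptides and amines in dense-core granules together with granins, and the set of hormones and transcription factors they express usually reflects the organ of origin. In the lung that programme includes NKX2-1, the transcription factor of thyroid and lung development, and gastrin-releasing peptide. In islets it includes NKX2-2, RFX6, ISL1 and PDX1.

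Several tissue markers went against the line names in the titles, and the labels themselves disagree. For both samples titled NCI-H727 the source entry gives QGP1 instead, and the descriptions of all 4 samples mention QGP1 cells with high ALDH. NKX2-1 read 8.77 and 8.38 in the control and DAXX-KD arrays labelled QGP1, the pancreatic line, and 3.35 and 3.23 in those labelled NCI-H727, the bronchial line. SFTA3, a surfactant-associated gene, read 10.46 and 10.17 in the arrays labelled QGP1 and 2.70 and 2.27 in those labelled NCI-H727. GRP, the gastrin-releasing peptide, read 12.80 and 11.76 in the arrays labelled QGP1 and 5.37 and 4.12 in the others. All 3 lung genes were thus high in both arrays labelled QGP1 and at or near background in both labelled NCI-H727. A second NKX2-1 probe set, of a type that may bind other transcripts, read 5.78 and 5.64 in the control arrays and did not show the difference.

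A pair of islet transcription factors ran the other way. RFX6 read 3.18 and 3.31 in the arrays labelled QGP1 and 9.33 and 9.69 in those labelled NCI-H727. NKX2-2 read 4.80 and 5.93 in the arrays labelled QGP1 and 9.17 and 9.25 in those labelled NCI-H727. Other members of the same lists did not follow this division: ISL1 read 9.61 and 8.82 in the control arrays, PDX1 5.30 and 5.54, and the lung mesenchyme factor TBX5 4.66 and 8.08. INS read 3.87 and 3.85, GCG 2.72 and 3.0, NKX6-1 4.32 and 4.35, and the lung carcinoid factor OTP 4.81 and 4.26, all at or near background. CALCA, the calcitonin gene of C cells and airway neuroendocrine cells, was high in all 4 arrays, at 13.72 and 13.54 in the controls, and its 3 other probe sets differed by -0.37, -1.60 and -2.36. Of 8 islet markers, 2 were at least 2-fold higher under the label NCI-H727 and 1 under the label QGP1. Of 4 pulmonary neuroendocrine markers, 0 and 2 were. Only 5 and 3 of these markers passed the filter, and over all genes past it the shares were 11.3% and 10.6%. Counts this small are only description. Which line each array holds could not be settled from the labels and was not tested, so the arrays are named by label throughout and every direction below rests on those labels.

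Most general markers were high under both labels, with single genes past 2-fold in each direction. The 7 neuroendocrine markers had medians of 11.19 and 11.39 in the control arrays, with CHGB at 12.37 and 12.70 and INSM1, a transcription factor of neuroendocrine cells, at 11.19 and 11.39. CHGA read 11.14 and 12.17 and the neuronal enolase ENO2 9.01 and 7.80. SYP, synaptophysin, was the lowest of the 7, at 6.22 and 5.89. The 4 epithelial markers had medians of 12.80 and 12.92, and the keratin KRT8 read 10.93 and 12.53. Of the 7 fibroblast and endothelial markers, summed levels on the log2 scale ran from 8.37 to 8.62 over the 4 arrays, and LUM read 2.96 in both controls. The 5 leukocyte markers summed to 7.63 and 7.73 in the arrays labelled QGP1 and 9.07 and 9.21 in those labelled NCI-H727. PTPRC, the defining one, read 3.54 and 3.36 in the controls, and LYZ, a secreted lysozyme that gut epithelium also makes, read 6.85 and 8.80. In RNA from a whole culture, fewer cells of a kind and less RNA per cell cannot be told apart.

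**Figure D1:**
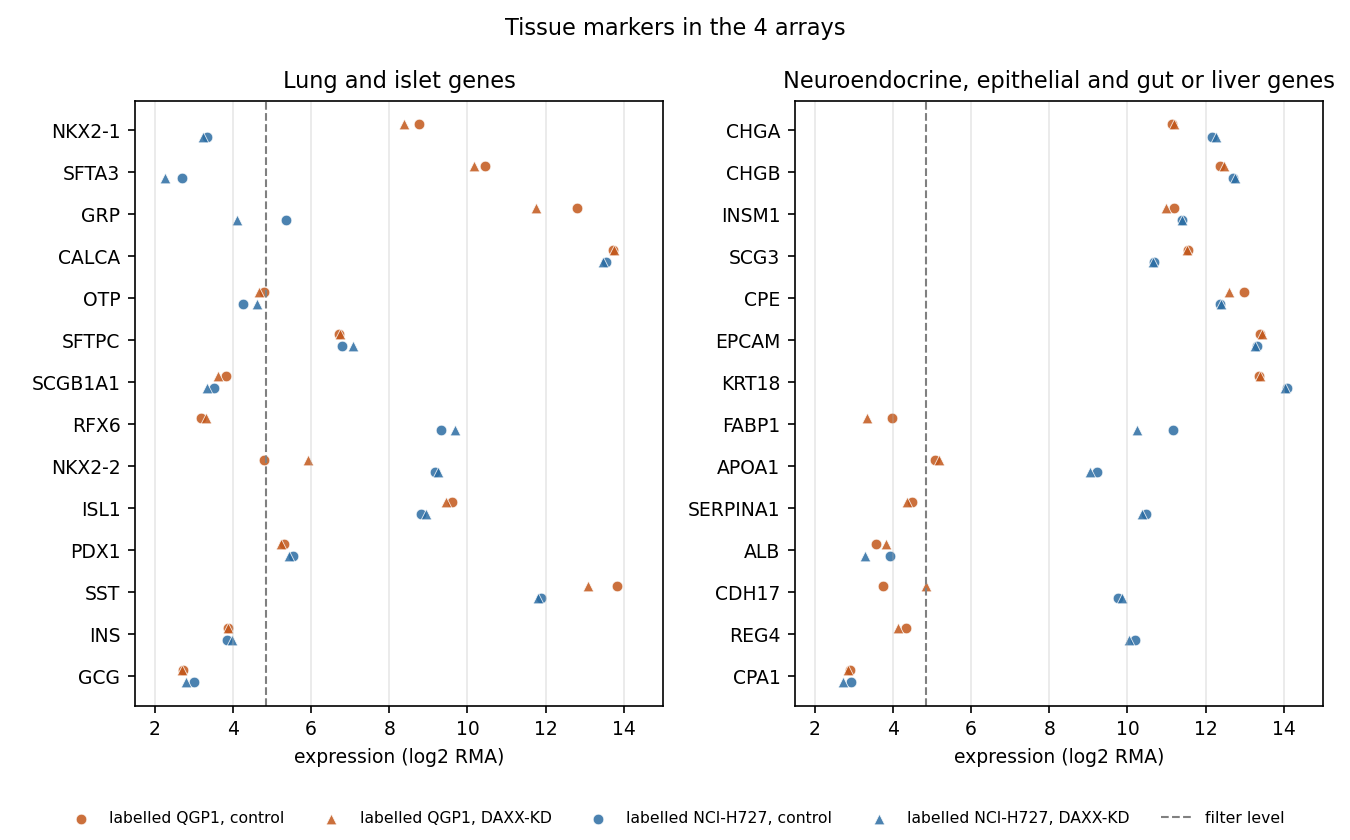
Log2 RMA signal (x axis) of 28 tissue genes in the 4 arrays, with circles for control and triangles for DAXX-KD, orange for the label QGP1 and blue for the label NCI-H727; the dashed line is the filter level of 4.85. NKX2-1, SFTA3 and GRP are high in the arrays labelled QGP1, RFX6, NKX2-2, FABP1, APOA1, SERPINA1, CDH17 and REG4 in those labelled NCI-H727, and CHGB, INSM1, CALCA and EPCAM are high in all 4.

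The 4 arrays had medians from 5.312 to 5.361, and across the 14648 genes, which are not independent, the control arrays correlated at Pearson 0.828, against 0.993 between control and DAXX-KD under the label QGP1 and 0.988 under the label NCI-H727. The DAXX-KD arrays correlated at 0.817 with each other, and the median control difference was 0.002. At least 2-fold higher in the array labelled NCI-H727 were 1656 genes (11.3%), and 1554 (10.6%) were at least 2-fold higher in the array labelled QGP1. Differences of 16-fold or more numbered 183 and 157, and in 130 and 113 of these the dim array lay under the filter level of 4.85. A fold against such an array is a lower bound, computed against the filter level and written as "at least". A fold against an array just above that level is a ratio of signals that may hold background.

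With 1 array per group the control difference itself has no test. A limma fit over all 4 arrays, with treatment as a covariate, called 3403 genes (23.2%) higher in the arrays labelled NCI-H727 and 3672 (25.1%) higher in those labelled QGP1 at a Benjamini-Hochberg adjusted p of 0.05. It rests on 1 residual and 4.18 prior degrees of freedom, and there are no repeat arrays of a label within 1 treatment. Its p-values set the label difference against its disagreement between the control and DAXX-KD pairs, with variance information shared across genes. Its smallest adjusted p was 1.77e-05, and 1629 and 1543 of the genes past 2-fold in the control arrays were among its calls. The fit includes those control arrays, so it lends that overlap no separate support. Without the QGP1-labelled control array it called 2154 and 2431, and without the QGP1-labelled DAXX-KD array 2236 under the label QGP1, in fits with no treatment term. The 4-array fit was also run on simulated data with 100 of 14648 genes changed by 1 log2 unit and 100 by 2. There 37 of 221 calls (16.7%) fell on unchanged genes, above the nominal level. Far fewer genes were changed in that simulation than were called here, so its share does not carry over to these counts. The counts and adjusted p-values may still be too favourable.

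**Figure D2:**
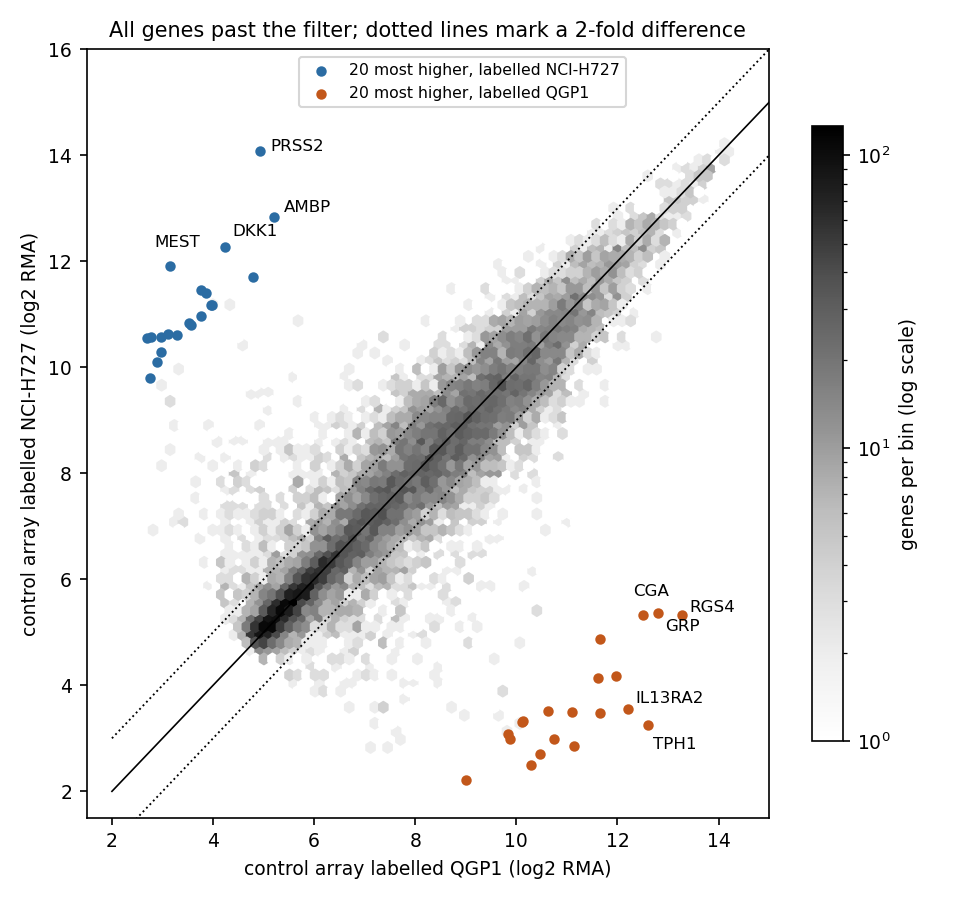
Log2 RMA signal of 14648 genes in the control array labelled QGP1 (x axis) and the control array labelled NCI-H727 (y axis), shaded by the number of genes per bin; the solid line marks equal signal and the dotted lines a 2-fold difference. The 20 genes with the largest difference in each direction (blue, orange) lie far outside the band, with PRSS2 at 4.93 and 14.08 and TPH1 at 12.60 and 3.25.

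TPH1, the rate-limiting enzyme of serotonin synthesis outside the brain, led the genes higher in the array labelled QGP1. It read 12.60 and 12.12 in the 2 arrays labelled QGP1 and 3.25 and 2.94 in those labelled NCI-H727, at least 214-fold higher in the control (limma coefficient -9.26, SE 0.13, adjusted p = 1.77e-05). IL13RA2, the decoy receptor of interleukin-13, read 12.21 and 3.56 in the control arrays, at least 164-fold higher under the label QGP1. RGS4, a brake on G protein signalling, read 13.28 and 5.33, a 247-fold difference. The growth cone protein GAP43 read 11.66 and 3.47, and DCX, a microtubule protein of migrating neurons, 10.75 and 2.99. PTGER4, a prostaglandin E2 receptor, read 11.98 and 4.18, whereas its second probe set differed by -0.21. GUCY1B1, a subunit of the nitric oxide receptor guanylate cyclase, read 11.11 and 3.50.

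The rest of the 20 had varied roles. HS3ST3B1, a heparan sulfate sulfotransferase, read 10.29 and 2.5, CD200, an inhibitory ligand for myeloid cells, 10.11 and 3.31, and PRKAR2B, a regulatory subunit of protein kinase A, 10.13 and 3.33. The cannabinoid receptor interacting protein CNRIP1 read 11.62 and 4.13, SH3BGRL 11.14 and 2.86, PWWP3B 10.62 and 3.52, the complement factor H relative CFHR4 9.87 and 2.98, and the secreted protein CRISP3 11.65 and 4.87. SVIP, a small partner of the segregase VCP, read 9.83 and 3.09, and VWDE 9.01 and 2.22. All 20, SFTA3, GRP and CGA included, were called in the same direction by limma, with adjusted p-values from 1.77e-05 to 2.25e-04. The 20 were picked by the control difference, which is part of the limma coefficient, so these calls are no separate support.

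PRSS2, a trypsinogen, led the other side. It read 4.93 and 5.40 in the arrays labelled QGP1 and 14.08 and 14.21 in those labelled NCI-H727, a 568-fold difference in the controls (limma coefficient 8.98, SE 0.15, adjusted p = 1.77e-05). Its probe set and that of PRSS3, which differed by 6.36, may bind the near-identical trypsinogen copies, so which copy was measured is uncertain. MEST, an imprinted hydrolase gene, read 3.14 and 11.91, at least 133-fold higher under the label NCI-H727. DKK1, a secreted Wnt inhibitor, read 4.24 and 12.27, at least 170-fold. AMBP, the precursor of alpha-1-microglobulin and bikunin, read 5.21 and 12.83, a 196-fold difference, but 5.76 and 6.23 at its second probe set. EREG, a ligand of the EGF receptor, read 2.78 and 10.58, and 5.38 and 6.52 at its second probe set.

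The others of the 20 also had varied roles. SDR16C5, a retinol dehydrogenase, read 2.69 and 10.55, AGTR1, the angiotensin II receptor, 3.10 and 10.63, and TFPI, the inhibitor of tissue factor, 4.79 and 11.71. TUSC3, a subunit of the oligosaccharyltransferase that glycosylates proteins, read 3.76 and 11.45, and the imprinted, retrotransposon-derived PEG10 2.98 and 10.58. LAMB1, a laminin chain, read 3.57 and 10.79, EPB41L3, a membrane skeleton protein, 2.89 and 10.10, and RASSF10 3.52 and 10.83. EMP1 read 3.96 and 11.18, the tetraspanin relative TM4SF4 3.76 and 10.96, and the sialyltransferase ST6GAL2 2.75 and 9.80. In limma all 20, VIP, FABP1 and IGFBP3 included, were called higher in the arrays labelled NCI-H727, with adjusted p-values from 1.77e-05 to 4.94e-05. Here too the control difference that picked the 20 enters the limma coefficient, so the calls are no separate support. Over all genes, the pooled SD between the differences given by several probe sets for the same gene was 0.645.

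Peptide hormones differed in both directions. For every list count below, the shares over all genes are 11.3% and 10.6% at 2-fold and 23.2% and 25.1% in limma, label NCI-H727 first. Of 29 measured neuropeptide and hormone genes, 6 (20.7%) were at least 2-fold higher under the label NCI-H727 and 7 (24.1%) under the label QGP1. Their median was 0.00, and limma called 6 in each direction, no more than its share over all genes. GRP, described above, was among those higher under the label QGP1. CALCB, the second calcitonin gene-related peptide gene, read 11.32 and 7.95, neuromedin U, NMU, 7.54 and 5.13, and SPX, the spexin precursor, 7.31 and 3.84. CGA, the alpha subunit shared by the pituitary and placental glycoprotein hormones, read 12.50 and 12.90 in the arrays labelled QGP1 and 5.33 and 5.94 in those labelled NCI-H727, 144-fold higher in the control. On the other side VIP, the vasoactive intestinal peptide, read 2.97 and 2.82 in the arrays labelled QGP1 and 10.29 and 10.91 in those labelled NCI-H727, at least 43.3-fold higher in the control. ADCYAP1, the precursor of the related peptide PACAP, read 3.28 and 9.97, the natriuretic peptide NPPB 5.03 and 8.36, and adrenomedullin, ADM, 7.72 and 10.45. SST, somatostatin, was high in all 4 arrays, at 13.83 and 11.87 in the controls and 13.07 and 11.80 in the DAXX-KD arrays.

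The promoters of some of these hormone genes were searched for the cAMP response element and other short motifs. The windows run from 250 bases before to 50 bases after the gene start in RefSeq on GRCh38.p14. They are shown for the hormones with the largest difference in each direction, GRP (chr18:59219908-59220207, plus strand), CGA (chr6:87095057-87095356, minus strand) and VIP (chr6:152750547-152750846, plus strand), and for SST (chr3:187670345-187670644, minus strand), which was high under both labels. FABP1 (chr2:88128013-88128312, minus strand) stands for the liver-type genes described further on. Capitals mark TGACGTCA, the full cAMP response element, its shorter form TGACGT, the TATA box letters TATAAA and, in FABP1, TGTTTGC, letters that forkhead factors can bind. Both strands were searched, and every TGACGTCA also holds TGACGT.
GRP: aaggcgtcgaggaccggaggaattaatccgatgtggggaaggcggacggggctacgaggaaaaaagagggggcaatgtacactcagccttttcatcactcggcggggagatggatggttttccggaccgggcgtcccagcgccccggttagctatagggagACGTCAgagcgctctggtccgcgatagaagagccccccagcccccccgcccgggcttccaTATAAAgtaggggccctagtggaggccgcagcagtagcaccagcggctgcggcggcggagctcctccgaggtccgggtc
CGA: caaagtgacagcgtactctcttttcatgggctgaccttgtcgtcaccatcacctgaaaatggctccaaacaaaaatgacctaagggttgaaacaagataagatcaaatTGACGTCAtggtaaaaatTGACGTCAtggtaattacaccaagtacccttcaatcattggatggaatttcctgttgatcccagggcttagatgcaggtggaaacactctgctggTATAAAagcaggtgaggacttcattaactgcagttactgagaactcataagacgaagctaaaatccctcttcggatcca
VIP: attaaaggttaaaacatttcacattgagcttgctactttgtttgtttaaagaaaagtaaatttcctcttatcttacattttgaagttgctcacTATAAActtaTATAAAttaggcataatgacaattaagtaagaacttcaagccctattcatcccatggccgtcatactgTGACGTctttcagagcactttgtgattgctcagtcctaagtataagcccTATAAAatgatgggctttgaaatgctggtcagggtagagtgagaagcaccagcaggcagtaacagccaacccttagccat
SST: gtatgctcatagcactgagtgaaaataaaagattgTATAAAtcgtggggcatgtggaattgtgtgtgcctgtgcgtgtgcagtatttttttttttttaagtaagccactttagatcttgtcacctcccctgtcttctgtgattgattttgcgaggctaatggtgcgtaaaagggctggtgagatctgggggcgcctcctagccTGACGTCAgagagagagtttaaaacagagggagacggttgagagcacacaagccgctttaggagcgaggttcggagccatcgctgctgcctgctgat
FABP1: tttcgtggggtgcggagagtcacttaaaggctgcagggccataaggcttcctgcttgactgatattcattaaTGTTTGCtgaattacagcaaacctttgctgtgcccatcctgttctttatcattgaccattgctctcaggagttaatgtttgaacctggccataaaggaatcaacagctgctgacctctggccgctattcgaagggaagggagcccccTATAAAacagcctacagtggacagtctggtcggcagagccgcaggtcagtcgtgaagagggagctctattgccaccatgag

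TGACGTCA stood at -142 and -124 in CGA and at -47 in SST, counted from the gene start. TGACGT stood at -89 in GRP, on the minus strand, and at -79 in VIP. TATAAA lay at -29 in both GRP and CGA, -30 in VIP and -31 in FABP1. It also lay at -157 and -147 in VIP, and in SST only at -215. Over all 35116 RefSeq promoter windows of this length, 1.85% held TGACGTCA, 7.98% TGACGT, 11.5% TATAAA and 3.89% TGTTTGC. Of 32 neuropeptide genes with a window, 3 held TGACGT and 10 held TATAAA, and of 39 liver-type genes 7 held TGTTTGC. The 3 are GRP, VIP and CARTPT, and CGA and SST stood outside that list. These list numbers count genes, whereas the shares over all promoters count windows, so they are not like for like. SERPINA1, with 2 windows, was counted though only 1 held TGTTTGC. Whether these letters bear on the levels was not tested.

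Lineage transcription factors were mixed within each organ. Among 26 measured lung and airway genes, 6 were at least 2-fold higher under the label NCI-H727 and 5 under the label QGP1. IRX3, a homeobox factor, read 10.62 and 4.45, beside NKX2-1 and SFTA3 on the QGP1-labelled side. The stomach and lung claudin CLDN18 read 3.56 and 9.24, the mesenchymal forkhead factor FOXF1 4.10 and 7.29 and the alveolar cofactor HOPX 6.07 and 8.33, all higher under the label NCI-H727. Of 19 pancreatic and islet factors, 5 were higher under each label. SOX9, a progenitor and duct factor, read 9.56 and 4.77, and the zinc finger factor MYT1 9.18 and 6.77, whereas GLIS3, a beta cell factor, read 3.45 and 7.56 and IRX2 3.99 and 8.85. IRX2 read 5.05 and 5.34 at its second probe set.

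Endoderm regulators differed in both directions. Of 14 measured, 6 (42.9%) were at least 2-fold higher under the label NCI-H727 and 3 (21.4%) under the label QGP1. The shares over all genes were 11.3% and 10.6%. The list median was 0.22, and limma called 6 and 4. The intestinal homeobox factor ISX read 5.12 and 9.36, and KLF4 9.13 and 10.53. HHEX, a liver and pancreas bud factor, read 8.34 and 5.05, FOXA1 8.54 and 7.18 and PROX1 10.88 and 9.64, all higher under the label QGP1.

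Other developmental factors were more often higher under the label QGP1, 12 of 45 against 6. SOX5 read 9.72 and 3.40, TFAP2A, a neural crest and ectoderm factor, 10.57 and 6.85, DACH1 10.40 and 6.79, and the neural factor ZIC2 7.87 and 4.77. FOXQ1 read 4.88 and 9.24 and EYA2 4.76 and 8.0 on the other side. SOX6 read 5.36 and 8.54 but 6.27 and 5.64 at another probe set. Of the HOX genes, HOXB2 and HOXB3 were higher under the label QGP1 and HOXD8 and HOXD9 under the label NCI-H727, with HOXB2 at 11.11 and 7.33 and HOXB3 at 11.25 and 9.28, against HOXD8 at 4.36 and 7.64 and HOXD9 at 5.64 and 7.67. Second probe sets of HOXB3 and HOXD9 differed by only -0.23 and 0.30. Of 22 measured HOX genes, 5 were higher under each label. HOXB6, at 9.88 and 10.89, was among those higher under the label NCI-H727, unlike HOXB2 and HOXB3.

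**Figure D3:**
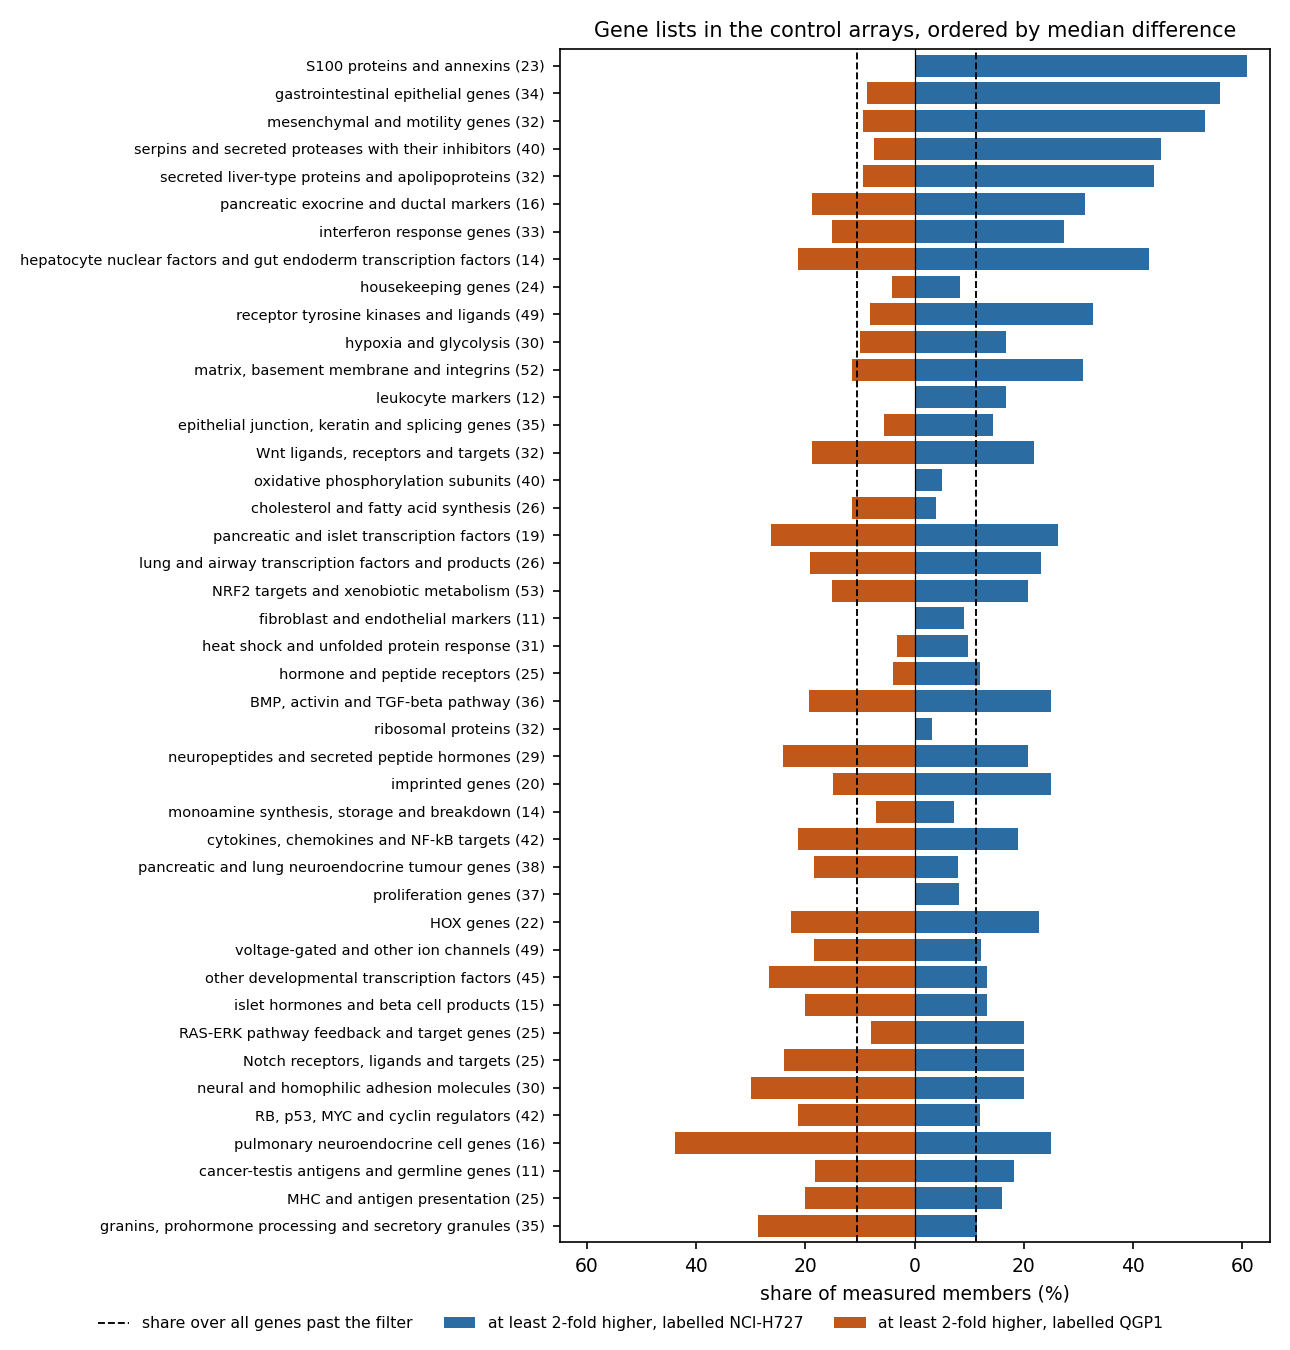
Share of measured members (x axis, %) at least 2-fold higher under the label NCI-H727 (blue, right) or QGP1 (orange, left) for 43 gene lists, with the number measured in brackets and the lists ordered by median difference; the dashed lines mark the shares over all genes, 11.3% and 10.6%. S100 proteins and annexins (60.9%) and gastrointestinal genes (55.9%) reach furthest to the right, and pulmonary neuroendocrine genes (43.8%) furthest to the left.

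Granins and processing enzymes were expressed under both labels. Of 35 measured genes in a list of granin, processing and granule genes that also holds neuronal genes such as GAP43, STMN2, ELAVL4, INA, UCHL1 and NCAM1, 10 were at least 2-fold higher under the label QGP1 and 4 under the label NCI-H727, with a median of -0.51, and limma called 17 and 5. SCG5, the chaperone 7B2 of a prohormone convertase, read 12.93 and 12.55 in the arrays labelled QGP1 and 6.55 and 6.13 in the others. SV2A, a synaptic vesicle glycoprotein, read 10.19 and 5.88, the neuronal RNA-binding protein ELAVL4 8.09 and 4.22 and the microtubule protein STMN2 10.45 and 4.15. UCHL1, the neuronal ubiquitin hydrolase PGP9.5, read 8.10 and 12.59, the filament protein INA 5.42 and 9.19 and the vesicle GTPase RAB3B 8.59 and 11.20, all higher under the label NCI-H727. The granin SCG3 read 11.56 and 10.69.

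Genes of pulmonary neuroendocrine cells had the largest share on the QGP1-labelled side, 7 of 16, with 4 on the other. ROBO1 and ROBO2, receptors of SLIT, read 12.32 and 9.74 and 6.89 and 2.97. DLL3, an inhibitory Notch ligand, read 9.48 and 7.63, but its 3 other probe sets differed by -0.35 to 0.03. YAP1, the Hippo pathway coactivator, read 5.62 and 8.13 and POU4F1 4.65 and 6.97 in favour of the label NCI-H727. Of 14 monoamine genes, TPH1 was at least 2-fold higher under the label QGP1 and SLC18A1, a vesicular monoamine transporter, under the label NCI-H727, at 6.38 and 8.85.

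Gastrointestinal epithelial genes were higher under the label NCI-H727 in 19 of 34 members and under the label QGP1 in 3, with a median of 1.22 (0.70 with no filter on dim genes), and limma called 24 and 3. CDH17, the liver-intestine cadherin, read 3.76 and 4.85 in the arrays labelled QGP1 and 9.76 and 9.85 in those labelled NCI-H727. REG4, a regenerating-family lectin, read 4.33 and 10.19, the trypsin inhibitor SPINK1 3.67 and 10.14, SPINK4 5.16 and 10.58 and CLRN3 3.34 and 9.90. The trefoil peptides, which protect mucosa, read 9.50 and 13.72 for TFF1 and 4.98 and 10.58 for TFF2. VIL1, the microvillus protein villin, read 8.82 and 12.35. MUC1, a surface mucin, read 8.76 and 5.50 on the other side, and REG1A 8.96 and 5.16.

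Secreted liver-type proteins showed the same side. Of 32 measured, 14 were at least 2-fold higher under the label NCI-H727 and 3 under the label QGP1, with a median of 0.76 (0.31 with no filter and 2.79 with a stricter one), and limma called 17 and 4. FABP1, the liver fatty acid binding protein, read 3.98 and 3.33 in the arrays labelled QGP1 and 11.17 and 10.24 in those labelled NCI-H727, at least 79.9-fold higher in the control, and 4.97 and 6.56 at its second probe set. SERPINA1, alpha-1-antitrypsin, read 4.49 and 10.48. The apolipoprotein genes read 5.09 and 9.23 for APOA1, 7.35 and 10.57 for APOA2, 4.09 and 9.05 for APOB and 4.12 and 7.90 for APOH. The second APOH probe set differed by 0.33. Prothrombin, F2, read 5.87 and 9.70 and transthyretin, TTR, 6.23 and 9.06. Albumin, the defining hepatocyte product, was at background in all 4 arrays, with ALB at 3.56 and 3.93 in the controls. Of the exocrine markers CPA1 read 2.91 and 2.92 and PNLIP 3.70 and 3.65, while the duct genes KRT19 and CA2 read 9.48 and 12.92 and 3.08 and 9.41. Of 16 measured exocrine and duct genes, 5 (31.2%) were at least 2-fold higher under the label NCI-H727 and 3 (18.8%) under the label QGP1. SOX9, MUC1 and BHLHA15 were those higher under the label QGP1, with MUC1 at 8.76 and 5.50 and BHLHA15 at 7.60 and 6.03.

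Serpins and secreted proteases were higher under the label NCI-H727 in 18 of 40 members and under the label QGP1 in 3, with a median of 0.85. SERPINE2, an inhibitor of thrombin and urokinase, read 6.37 and 11.16, SERPINF1, the antiangiogenic factor PEDF, 4.16 and 8.56, TFPI2 3.19 and 8.52 and the membrane protease TMPRSS4 4.23 and 8.23. This list shares PRSS2, PRSS3, SPINK1 and SERPINA1 with the groups above.

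No measured S100 protein or annexin was 2-fold higher under the label QGP1, whereas 14 of 23 were higher under the label NCI-H727, with a median of 1.44 (0.66 with no filter on dim genes), and limma called 14 in that direction. These are calcium-binding proteins of membranes and the cytoskeleton. S100A4 read 8.11 and 13.68, S100P 5.46 and 12.14 and S100A14 5.40 and 10.51. ANXA1 read 6.71 and 9.60, ANXA13, an intestinal annexin, 4.37 and 7.77, and ANXA2 11.27 and 12.88.

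Mesenchymal and motility genes shared this direction, 17 of 32 against 3, with a median of 1.18, and limma called 20 and 4. CD44, the hyaluronan receptor, read 4.88 and 10.55, NT5E, the ectonucleotidase CD73, 4.53 and 9.67, and SNAI2, the transcription factor SLUG, 3.39 and 7.70. The tropomyosins TPM1 and TPM2 read 9.68 and 13.15 and 4.53 and 10.37, and the 3 other TPM2 probe sets differed by 0.08 to 0.81. MMP2, the gelatinase, read 8.62 and 4.96 in the other direction. CDH1, the epithelial cadherin, was high under both labels at 12.24 and 11.55. The list median was 0.44 without probe sets that may bind several transcripts and 0.47 with no filter.

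Matrix genes gave 16 of 52 higher under the label NCI-H727 and 6 under the label QGP1. The basement membrane collagens COL4A1 and COL4A2 read 4.52 and 7.30 and 4.47 and 8.58, though the second COL4A2 probe set differed by 0.27. LAMB3 read 5.46 and 8.07, the integrin chain ITGB8 6.45 and 9.87, and the heparan sulfate proteoglycans GPC4, SDC2 and GPC3 9.71 and 3.91, 9.15 and 5.27, and 7.58 and 4.47. These 3 proteoglycans were thus higher under the label QGP1 and the named collagens and laminin under the label NCI-H727.

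Receptor tyrosine kinases and their ligands numbered 16 of 49 higher under the label NCI-H727 and 4 under the label QGP1. KIT, the stem cell factor receptor, read 7.93 and 4.43 and its ligand KITLG 9.48 and 5.85. ERBB4, a neuregulin receptor, read 9.81 and 8.72 in the arrays labelled QGP1 and 3.86 and 3.41 in the others, and 2 of its other probe sets differed by -2.56 and -1.74. On the other side FGFR3 read 4.92 and 8.18, the ephrin receptor EPHA2 6.21 and 9.41, ROR2 3.21 and 7.70, and the IGF binding proteins IGFBP3 and IGFBP6 3.87 and 11.40 and 6.38 and 10.43. Among 25 ERK pathway genes, FOSL1, a target of sustained ERK activity, read 4.81 and 8.22 and CCND1, cyclin D1, 9.80 and 11.84, whereas the immediate early factor EGR1 read 12.63 and 9.84.

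Wnt pathway genes differed in both directions, 7 and 6 of 32. The antagonists opposed each other, with DKK1 high under the label NCI-H727 and WIF1, at 9.64 and 3.16, and DKK3, at 7.23 and 3.58, high under the label QGP1. The receptors FZD10 and FZD5 read 3.85 and 10.45 and 7.87 and 11.27, FZD4 read 8.89 and 6.66, and the ligand WNT5A 8.82 and 3.19. In the TGF-beta family, TGFBR2, the type II receptor, read 6.94 and 11.24 and the inhibitor SMAD7 5.55 and 8.47, against the BMP transducer SMAD9 at 10.61 and 6.19 and follistatin, FST, at 10.15 and 6.29. Of those 36 genes, 9 were higher under the label NCI-H727 and 7 under the label QGP1. Of 25 Notch genes, 5 and 6 passed 2-fold, led by the coactivator MAML2 at 7.29 and 3.55.

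Interferon genes were higher under the label NCI-H727 in 9 of 33 members and under the label QGP1 in 5. The guanylate-binding proteins GBP1, GBP2 and GBP3 read 3.08 and 8.96, 3.75 and 8.44, and 3.35 and 9.45. BST2, tetherin, read 4.84 and 10.22, whereas IFIT2 read 7.83 and 5.59. Of 25 antigen presentation genes, a separate list, 4 (16%) were higher under the label NCI-H727 and 5 (20%) under the label QGP1. For these limma called 5 and 12. Among them the immunoproteasome subunit PSMB8 read 5.32 and 8.65, against HLA-F at 10.20 and 8.36. MICB, a stress ligand for natural killer cells, read 9.42 and 3.80, higher under the label QGP1. Among cytokine genes CCL20 read 10.53 and 4.0, PTGS2, cyclooxygenase-2, 10.11 and 5.80 and LIF 8.76 and 5.43, against the neutrophil chemokines CXCL1 at 7.25 and 10.02 and CXCL8 at 8.56 and 11.31.

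Detoxification genes included ABCB1, the multidrug transporter, at 3.28 and 3.60 in the arrays labelled QGP1 and 9.78 and 9.81 in those labelled NCI-H727. AKR1B10, an aldo-keto reductase, read 4.33 and 9.29, CYP1B1 6.44 and 11.02 and the mitochondrial aldehyde dehydrogenase ALDH2 6.55 and 9.64. UGT8, a ceramide galactosyltransferase, and GSTM3, a glutathione transferase, read 10.75 and 7.46 and 10.99 and 7.80. The second GSTM3 probe set differed by -0.41. Of 53 detoxification genes, 11 (20.8%) were higher under the label NCI-H727 and 8 (15.1%) under the label QGP1, against 11.3% and 10.6% of all genes.

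Tumour genes of this field included KDM6A, the histone H3K27 demethylase on the X chromosome, at 2.88 in the control array labelled QGP1 and 8.75 in that labelled NCI-H727. SMARCA1 and SMARCA2, remodelling ATPases, read 9.78 and 4.61 and 9.36 and 7.32. DAXX, the histone H3.3 chaperone targeted by the siRNA, read 8.52 and 6.56 in the control and DAXX-KD arrays labelled QGP1 and 7.35 and 6.14 in those labelled NCI-H727. It was thus lower in the DAXX-KD array under each label, and its partner ATRX read 9.74 and 8.34 in the controls. Of 38 pancreatic and lung neuroendocrine tumour genes, 7 (18.4%) were higher under the label QGP1 and 3 (7.89%) under the label NCI-H727. The shares over all genes were 10.6% and 11.3%.

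Cell cycle regulators gave 9 of 42 (21.4%) higher under the label QGP1 and 5 (11.9%) under the label NCI-H727, against 10.6% and 11.3% of all genes. MDM2, the p53 ubiquitin ligase, read 12.19 and 9.49, the p53 targets CDKN1A and GDF15 9.54 and 7.52 and 13.73 and 11.42, and the survival factor BCL2 8.45 and 6.68, although another BCL2 probe set differed by 0.46. The inhibitors CDKN1B and CDKN2B read 9.19 and 10.79 and 6.85 and 8.44. Of 37 proliferation genes 3 passed 2-fold. One of these, MKI67, read 8.59 and 10.49, while 2 of its other probe sets differed by -0.21 and -0.22.

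Excitability and neural adhesion genes were high under different labels gene by gene. The sodium channel SCN3A read 12.35 and 7.27, and the potassium channel genes KCNMB4 and KCND3 11.13 and 6.27 and 9.16 and 5.28. The glutamate receptor subunit GRIA3 read 4.54 and 8.51 and KCNJ16 3.18 and 7.10, but another GRIA3 probe set past the filter level differed by 0.33. Of 49 channel genes, 9 (18.4%) were higher under the label QGP1 and 6 (12.2%) under the label NCI-H727, against 10.6% and 11.3% of all genes. CDH18, a neuronal cadherin, read 10.19 and 3.78, PCDH9 11.33 and 6.81 and L1CAM 8.23 and 4.74, against CDH7 at 4.06 and 8.09 and FLRT3 at 7.87 and 11.49. The second L1CAM probe set differed by 0.04.

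Of 20 imprinted genes, 5 were higher under the label NCI-H727 and 3 under the label QGP1, with SGCE at 6.74 and 9.76 and NAP1L5 at 8.67 and 5.46 beside MEST and PEG10. Among 11 measured cancer-testis genes, MAGEA6 read 10.09 and 7.95, PRAME 7.32 and 5.21 and PIWIL1 4.87 and 7.68. Lists of basic cell functions are given beside the shares of all genes, 11.3% higher under the label NCI-H727 and 10.6% under the label QGP1. At least 2-fold higher under the label NCI-H727 were 1 of 32 ribosomal proteins (3.12%) and 2 of 40 respiratory chain subunits (5%). Of 24 housekeeping genes, 2 (8.33%) were, nearer the share of all genes. Under the label QGP1 the numbers were 0, 0 and 1.

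The DAXX-KD arrays repeated most of the pattern. Across genes, the difference between labels correlated at 0.958 between the control pair and the DAXX-KD pair, and the SD of the discrepancy was 0.373. Of the 1656 and 1554 genes past 2-fold in the controls, 1338 and 1409 were past 2-fold in the same direction in the DAXX-KD pair. Opposite signs occurred in 11 genes and in 0 with both differences past 2-fold. REG1A differed by -3.81 in the controls and -0.37 in the DAXX-KD arrays and NTM by 6.66 and 4.66. GBP1 differed by 5.88 and 3.61 at the probe set used, which may bind other transcripts, and by 6.12 and 5.31 and by 5.83 and 5.80 at 2 of its others. NTM was chosen after its value was seen.

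**Figure D4:**
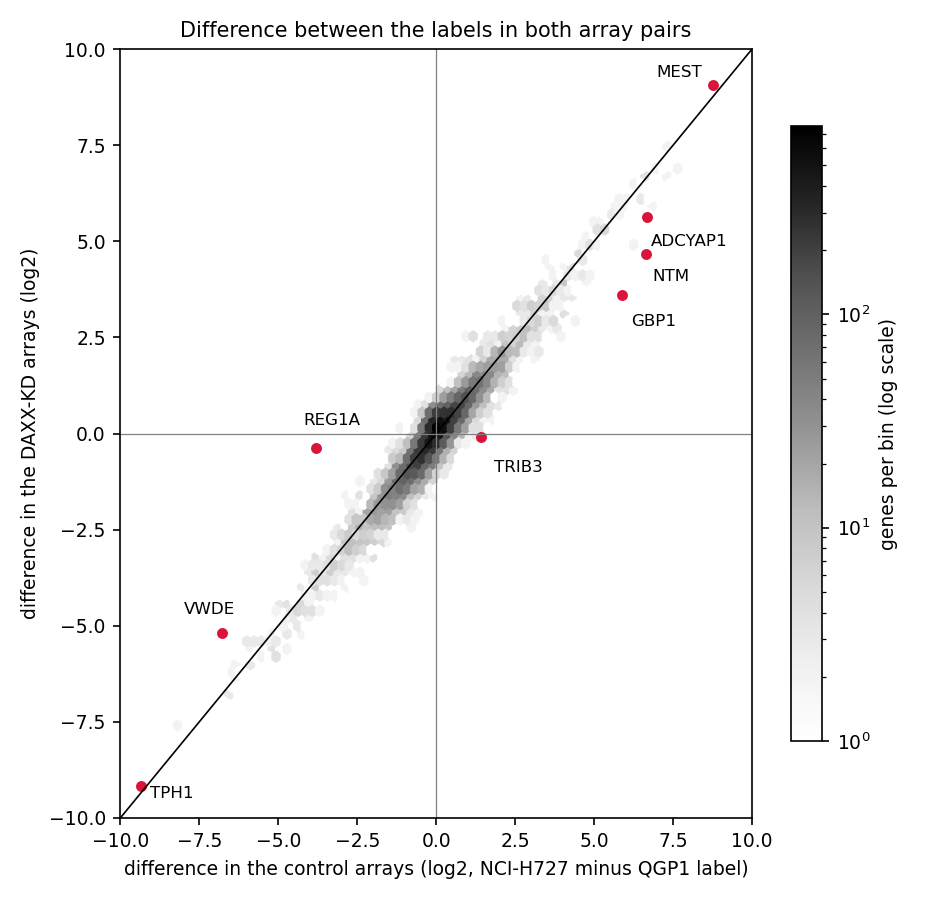
Difference between the labels (log2, NCI-H727 minus QGP1) in the control arrays (x axis) and in the DAXX-KD arrays (y axis) for 14648 genes, shaded by the number per bin, with the line of equality and 8 genes in red. Most genes follow the line, from TPH1 at -9.35 and -9.18 to MEST at 8.77 and 9.08, and REG1A at -3.81 and -0.37 lies off it.

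Some neighbouring genes differed together. Runs of 4 or more adjacent measured genes, all at least 2-fold different in 1 direction, numbered 50 and held 236 genes, 29 higher under the label NCI-H727 and 21 under the label QGP1. The longest held 9 zinc finger genes of chromosome 19, from ZNF101 to ZNF85, with differences of 1.21 to 6.48, all 9 past 2-fold in the DAXX-KD arrays too. Zinc finger genes of one cluster are similar in sequence, so their probe sets may share signal.

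A run of 8 clustered protocadherins of chromosome 5 was higher under the label QGP1, with PCDHB7 at -5.63 the furthest, and these too are similar in sequence. Chromosome 12 held a run of 6 genes from HELB to RAP1B and a run of 4, NUP107, SLC35E3, MDM2 and CPM, all higher under the label QGP1, with medians of -2.20 and -2.41. BEX4, BEX2, BEX3 and 4 TCEAL genes of the X chromosome, expressed in neural cells, differed by -4.48 to -1.29. On chromosome 1, S100A4, S100A3, S100A2, S100A16 and S100A14 differed by 1.37 to 5.57. GUCY1A1 and GUCY1B1, which form 1 enzyme, stood in a run of 6 on chromosome 4 with a median of -3.69. With the mean of all probe sets of a gene in place of the brightest, 25 runs were found, and whether they are the same runs was not counted.

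**Figure D5:**
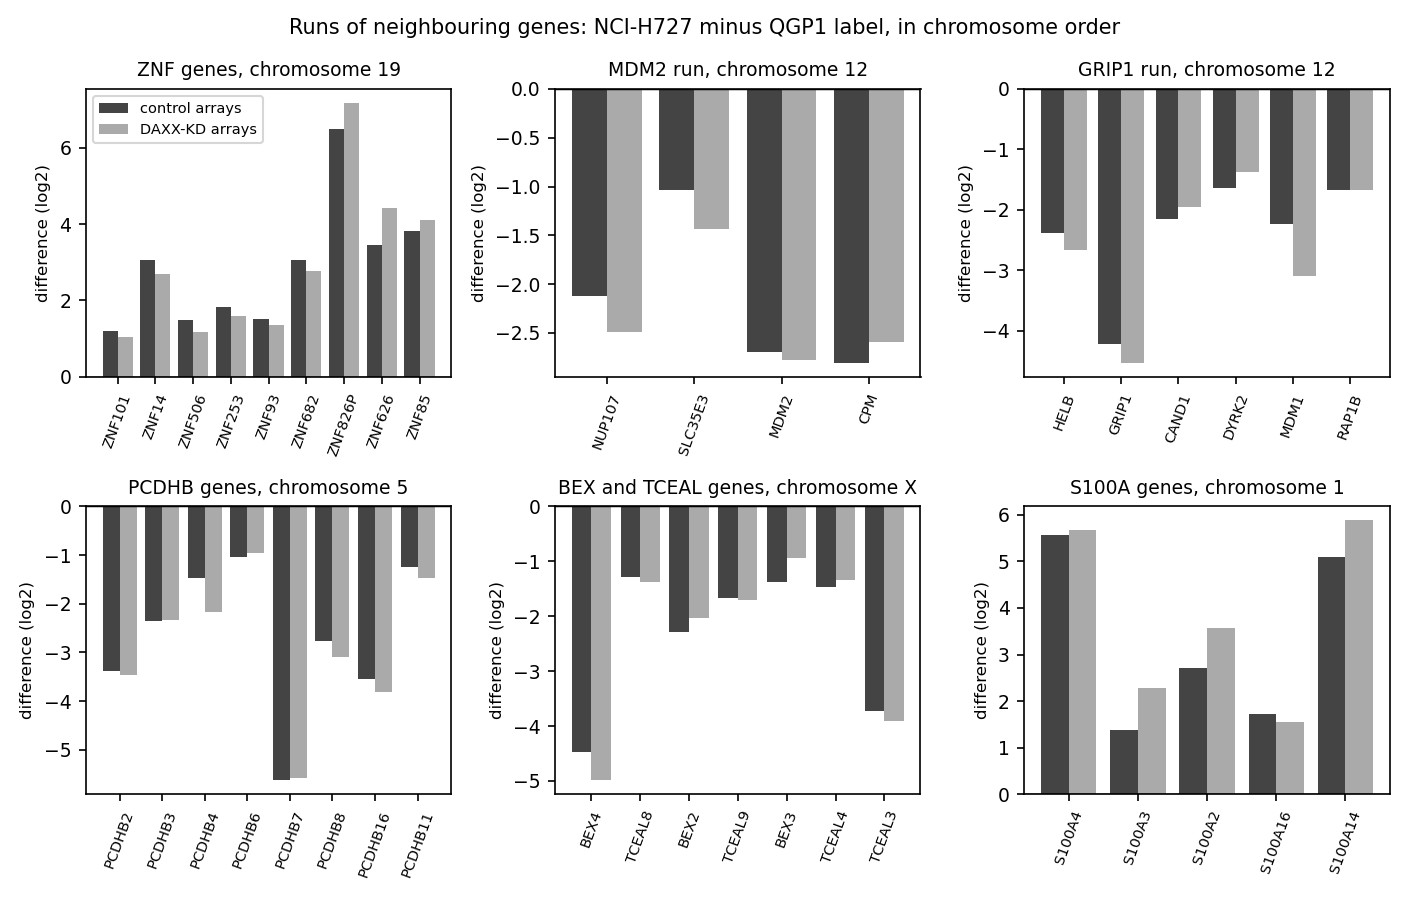
Difference between the labels (y axis, log2, NCI-H727 minus QGP1) for the genes of 6 runs in chromosome order, dark bars for the control arrays and light bars for the DAXX-KD arrays. Within each run all genes differ in the same direction in both pairs, from PCDHB7 at -5.63 to ZNF826P at 6.48 in the controls.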

How the data were processed

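Total RNA of 4 siRNA-transfected cell samples was measured on 4 one-colour Affymetrix arrays. The deposited values are log2 signals that the authors made with RMA, a method that removes background, equalises the distributions of the arrays and gives 1 value per probe set (affy 1.40.0 and R 3.0.3, per the submitters' processing notes). A shift shared by most genes is removed by that step, and dim signals are compressed. Nothing in the labels says that arrays came from separate cultures. The p-values thus measure only the residual spread among these arrays, and their number limits the precision.

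Of 54613 probe sets, 41091 had 1 gene symbol in the platform annotation, 1801 several and 11721 none; the last 2 kinds were left out. Names of 41037 were found in RefSeq (GRCh38.p14). The probe set with the highest mean stood for a gene, and genes whose mean lay below the 40th percentile of probe set means (4.85) were left out. Differences of single arrays were described by size at 2-fold. limma 3.58.1 (R 4.3.3) fitted label and treatment over the 4 arrays, two-sided with Benjamini-Hochberg adjustment over 14648 genes at 0.05, and was tested on simulated data, where it recovered the sign and size of changed genes but called more unchanged genes than the nominal share.

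The comparison and the 43 gene lists were chosen with earlier results of these data known. Named genes were the 20 largest differences each way without uncharacterised symbols, up to 10 members per list by size, the tissue markers, DAXX, ATRX and run members; any other is said to be chosen after its value was seen. Alternatives changed the probe set rule, the filter, the probe sets allowed, the scaling, the array pair and the fold threshold, and left out each array. Lists were described by counts and medians with no test. Some listed genes were not measured past the filter or are not reported here.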

Additional observations from a re-analysis of the deposited data

Results flagged for a closer look

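TRIB3, a pseudokinase of the stress response, differed by 1.42 (9.01 and 10.43) between the control arrays and by -0.09 (10.55 and 10.46) between the DAXX-KD arrays. PLEKHG1, a member of a run of neighbouring genes, differed by 1.08 and -0.08. Both drew attention because the difference had opposite signs in the 2 pairs of arrays. With 1 array per group the change of sign was not tested.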

How the results depend on the processing

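At a 4-fold threshold 610 genes were higher under the label NCI-H727 and 556 under the label QGP1. Leaving out each array in turn gave 2154 to 3187 limma calls higher under the label NCI-H727 and 2236 to 3471 under the label QGP1; the counts were 2154 and 2431 without the QGP1-labelled control array, and the second was 2236 without the QGP1-labelled DAXX-KD array, in fits with fewer arrays and, since it could not then be fitted, no treatment term. The runs numbered 25 with the mean of all probe sets. List medians that moved by over the SD of the discrepancy between the control and DAXX-KD pairs, 0.373, were liver-type genes (0.31 with no filter, 2.79 with a 60th percentile filter), gastrointestinal genes (1.66 with the mean of probe sets, 0.70 with no filter, 3.39 with the 60th percentile, 1.95 without x_at and s_at probe sets), mesenchymal genes (0.47 with no filter, 0.44 without those probe sets), S100 proteins and annexins (0.66 with no filter), cancer-testis genes (-0.97) and exocrine genes (1.93) at the 60th percentile, adhesion genes (-0.56, -0.78 and -0.68 with the mean, the 60th percentile and without those probe sets), interferon genes (0.75) and the unfolded protein response (-0.42) in the DAXX-KD arrays. A stricter filter keeps fewer genes, and those kept are brighter in at least 1 label; the cause of the other shifts was not tested. Without x_at and s_at probe sets the sign turned for CAV2 (-0.25), SMAD6 (-0.36), LTBP3 (0.11), ERAP1 (0.16), CA12 (-0.17) and ERO1A (-0.01), and in the DAXX-KD arrays for TRIB3 (-0.09) and PLEKHG1 (-0.08). Among the genes open to naming, those that moved by over that SD numbered 230 in the DAXX-KD arrays, 220 with the mean of probe sets and 48 without x_at and s_at probe sets, and 0 under the other settings. Other scalings moved the median of all genes to between -0.017 and 0.015. No paired analysis was possible because each group holds 1 array and the labels number no replicates, beyond the treatment term of the limma fit, which sets the labels against each other within each treatment. Dim signals limit what can be said of genes under 4.85.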

Other observations

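The share of genes past 2-fold differed between chromosomes, a tabulation chosen after the data were seen and given as values. On chromosome 5, 4.81% of 645 genes were at least 2-fold higher under the label NCI-H727 and 16.7% under the label QGP1, with a median of -0.28. On chromosome 17 the shares were 4.01% and 14.7% of 873 genes, and on chromosome 1 they were 9.52% and 16.3% of 1460. The reverse held on chromosome 11 (18% and 5.25% of 877), chromosome 14 (17% and 4.41% of 476), chromosome 12 (20.1% and 9.33% of 793) and chromosome 20 (15.8% and 4.11% of 438). Over all genes past the filter the control shares were 11.3% and 10.6%. In the DAXX-KD arrays the shares were 3.57% and 22.6% on chromosome 5 and 18.4% and 5.36% on chromosome 11. The share under the label QGP1 was larger in the DAXX-KD pair on every chromosome but 22, with 19.7% on chromosome 1, so that rise was not particular to chromosome 5.

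Of genes past 2-fold that have further probe sets, all further probe sets had the same sign in 739 of 884 genes higher under the label NCI-H727 and in 691 of 859 higher under the label QGP1.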
